A study of Mus musculus with 6 samples.

Results

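Structured noncoding RNAs, 9 genes in all, were followed through whole testes of juvenile mice with and without Ankrd31, whose protein helps to place the DNA breaks of meiotic recombination. They are Rn7sk, Rmrp, Rpph1, Terc, the small nuclear RNA genes Gm22513, Gm24407 and Gm24265, the 57-base gene Gm23935, and Gm42418, which overlaps ribosomal RNA and serves as a gauge of ribosomal RNA carried into the libraries. The 9 were picked by name from 49671 gene rows, and all 9 were in the table. Most were chosen because earlier results of the same 6 libraries had shown them higher in the knockout, so their differences between the genotypes are given here as a description without a test.

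Testes came from mice on the C57BL/6J background at 12 days post-partum, with 3 libraries of genotype Ankrd31+/+ and 3 of genotype Ankrd31-/-. The design names mice but not litters, so any p-value measures only the spread between these libraries. Replicate numbers 1 to 3 run through both genotypes, and libraries of the same number are called a pair below. Libraries held 21014060 to 22706296 counts. Ankrd31 itself had 1876, 1189 and 1336 counts in wild-type replicates 1 to 3 and 897, 724 and 844 in the knockout. It stood at 66.8 ± 16.6 CPM (counts scaled to an effective library of 1000000 counts; SD, n = 3) in wild type and 37.3 ± 3.89 CPM in the knockout, and the gene-level count cannot tell transcripts of the deleted allele from intact ones. Every listed marker of germ cells (8 of 8) and Sertoli cells (5 of 5) passed the filter on low counts, and the summed level of 6 epididymis and rete markers was 66.5 CPM in wild-type replicate 3 against 8.42 to 14.8 CPM in the other 5 libraries. The summed level of 5 Leydig cell markers was 728 CPM in knockout replicate 2 against 232 to 357 CPM elsewhere. The part of either in the results below was not tested.

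Leaving aside Gm23935 and the gauge Gm42418, the RNAs differ in their work but share stable folds, short length and mature ends without a poly(A) tail. The 7SK RNA (Rn7sk) holds the elongation kinase P-TEFb in an inactive particle. Rmrp and Rpph1 encode the RNA subunits of the related endoribonucleases RNase MRP and RNase P, which trim ribosomal and transfer RNA precursors, and Terc is the template RNA of telomerase. U1 and U4 are spliceosomal RNAs: U1 pairs with the 5′ splice site and U4 carries U6 into the spliceosome. RNA polymerase III transcribes Rn7sk, Rmrp and Rpph1 from promoters that lie upstream of the transcribed part, and RNA polymerase II transcribes U1, U4 and Terc.

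The sequences below identify what was counted (RNA sequences from GENCODE M21, mm10, written as DNA). The first shows the start of the 7SK RNA (chr9:78175534-78175633, minus strand, bases 1 to 100), with the repeated GATC in capitals at bases 13 to 16, 42 to 45 and 64 to 67. The second, Gm22513 (chr12:54696782-54696945, plus strand), is a U1 gene. Its capitals mark the 11 bases at the 5′ end that pair with splice sites and the Sm protein site at bases 125 to 133. The last shows the first 60 bases of Terc (chr3:96414800-96414859, minus strand), with the telomere template in capitals at bases 29 to 36.
Rn7sk: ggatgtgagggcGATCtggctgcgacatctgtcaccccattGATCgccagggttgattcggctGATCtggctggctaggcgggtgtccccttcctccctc
Gm22513: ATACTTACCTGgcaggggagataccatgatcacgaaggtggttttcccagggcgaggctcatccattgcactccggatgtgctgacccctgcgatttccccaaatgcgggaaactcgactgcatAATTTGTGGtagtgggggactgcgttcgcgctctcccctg
Terc: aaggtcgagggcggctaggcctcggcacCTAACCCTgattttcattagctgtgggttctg

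Gm24265 (chr5:115489459-115489599) and Gm24407 (chr5:115490254-115490394), both on the plus strand with starts 795 bases apart, are U4 genes that differ at 2 of 141 bases. Counted from the 5′ end, with Gm24265 as the reference, the differences are G88A and C99A, set in capitals below. A read that spans neither base fits both genes, so the split of counts between them is uncertain and they are not independent measurements.
Gm24265: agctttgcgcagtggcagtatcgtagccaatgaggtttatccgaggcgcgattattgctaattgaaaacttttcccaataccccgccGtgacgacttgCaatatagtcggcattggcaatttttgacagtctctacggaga
Gm24407: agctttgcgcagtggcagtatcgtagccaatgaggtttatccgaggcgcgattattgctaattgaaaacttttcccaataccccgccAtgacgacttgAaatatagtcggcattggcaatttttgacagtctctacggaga

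Of the 9 genes, 8 passed the filter on low counts and Terc did not. In 7 of the 8, every knockout library lay above every wild-type library, where 3.09% of the 18040 tested genes were separated in that direction and 3.5% in the other. The 7 were also higher in all 3 pairs, as were 13.9% of tested genes. The genes were picked on this contrast, so nothing is read from these counts. Without the replicate number as a block, no gene of the 18040 passed edgeR's quasi-likelihood test (0 genes, 0%), DESeq2 called 2 and limma voom 0. At an unadjusted p under 0.05 edgeR had 374 genes (2.07%), with 152 higher in the knockout (0.843%). With the block, Rn7sk and Gm23935 were among the 6 genes (0.0333% of those tested) called higher in edgeR, and no member was among the 2 called lower (0.0111%). In bulk testis, fewer cells of a type and less RNA per cell cannot be told apart.

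**Figure D1:**
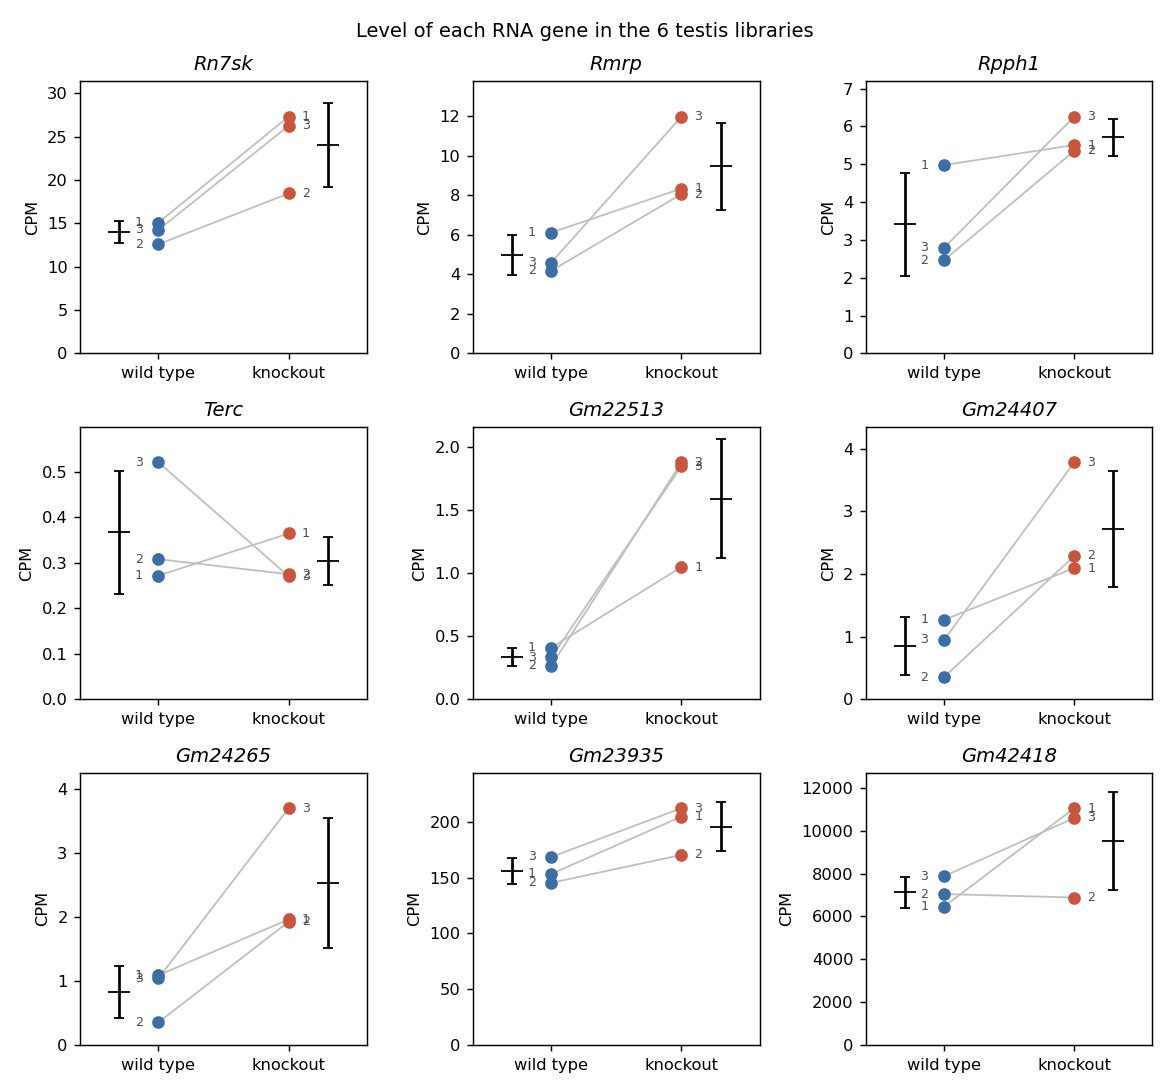
Level of each of the 9 genes in CPM (vertical axes, each starting at 0) in wild-type and knockout libraries; small numbers are replicate numbers, grey lines join same-number pairs, and black bars give mean ± SD of 3 libraries. Terc and Gm42418 overlap between the genotypes, and the other 7 do not.

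Rn7sk (chromosome 9, 78175303 to 78175633, minus strand) was the most abundant member in CPM after Gm42418 and Gm23935. It was counted 333, 286 and 301 times in wild-type replicates 1 to 3 and 600, 403 and 583 times in the knockout, or 15.08, 12.58 and 14.25 CPM against 27.32, 18.45 and 26.27 CPM. The lowest knockout library, replicate 2, thus stood 3.38 CPM above the highest wild-type library. The fitted log2 fold change, knockout over wild type, was 0.78 ± 0.15 (SE), and 0.77 ± 0.09 with the block. The closest other gene row in sequence, Gm23037 at 89.2% identity, held 2 counts in wild type and 3 in the knockout.

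The partners of 7SK had values near 0. Larp7, which binds the 3′ end of 7SK, had a log2 fold change of 0.02 ± 0.10, the capping enzyme gene Mepce 0.002 ± 0.067, and Hexim1, which inhibits the kinase when bound to 7SK, 0.02 ± 0.07. Of the 7 genes for 7SK-binding proteins and P-TEFb, edgeR called 0 with or without the block, and the median was 0.02 against -0.005 for all tested genes.

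Rmrp and Rpph1, the catalytic RNAs of the sister enzymes, were both higher in every knockout library than in any wild-type library. Rmrp (chromosome 4, 43492788 to 43493058, minus strand) stood at 6.11, 4.18 and 4.59 CPM in wild type against 8.33, 8.06 and 11.98 CPM in the knockout, on 135, 95 and 97 against 183, 176 and 266 counts. Its log2 fold change was 0.93 ± 0.20. Rpph1 (chromosome 14, 50807449 to 50807767, minus strand) stood at 4.98, 2.46 and 2.79 CPM against 5.51, 5.36 and 6.26 CPM, with a log2 fold change of 0.74 ± 0.25.

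In Rpph1 the separation was narrow, since wild-type replicate 1 came within 0.377 CPM of the lowest knockout library, and the spread lay in the wild type (SD 1.37 CPM, against 0.485 CPM in the knockout). Leaving out wild-type replicate 2 lowered the Rpph1 value to 0.55, and leaving out wild-type replicate 1 raised it to 1.12.

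Ccdc107 covers 159 bases of Rmrp on the opposite strand. The GENCODE M21 span of Ccnb1ip1 covers 284 bases of Rpph1 on the same strand, but the exons counted for Ccnb1ip1 in the deposited table end at base 50795728 of chromosome 14, before Rpph1 begins. Ccnb1ip1 had a log2 fold change of 0.12 ± 0.14 and Ccdc107 of -0.09 ± 0.11. The sources used here do not say how reads in the bases shared by Rmrp and Ccdc107 were assigned.

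The 11 protein subunit genes of RNase P and RNase MRP had values on both sides of 0. Pop4 went from 58.8 ± 2.07 to 60.7 ± 2.88 CPM (SD, n = 3) and Pop1 from 46.9 ± 4.52 to 47.03 ± 2.81 CPM. Of the 11, edgeR called 0 with or without the block; their log2 fold changes lay between -0.18 and 0.09, with a median of -0.01.

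Terc was near the limit of detection and did not share the direction. It had 6, 7 and 11 counts in wild type and 8, 6 and 6 in the knockout. Summed over 3 libraries these are 24 counts (exact Poisson 95% interval 15.4 to 35.7) and 20 counts (12.2 to 30.9), intervals that cover counting error only and overlap. No difference in Terc was detectable at this depth, and a fit without the filter gave a log2 fold change of -0.26 ± 0.51. Of the 8 telomerase protein genes, edgeR called 0, with a median log2 fold change of 0.003; the reverse transcriptase gene Tert had 0.02 ± 0.15.

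The spliceosomal RNA genes had the largest ratios and the fewest reads among the tested members. Gm22513, the U1 gene, had 9, 6 and 7 counts in wild type and 23, 41 and 41 in the knockout. In CPM these are 0.408, 0.264 and 0.331 against 1.05, 1.88 and 1.85, a ratio of means of 4.76 and a fitted log2 fold change of 2.23 ± 0.35. The summed counts were 22 (Poisson 95% interval 13.8 to 33.3) and 105 (85.9 to 127). These intervals cover counting error only, not the spread between libraries, and the gene was chosen on this contrast, so nothing is read from them about genotype. Counting error alone leaves the size of the ratio loose.

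Few reads were assigned to other U1 copies. The 21 other genes with at least 95% identity over at least 90% of its length held 4 counts in wild type and 5 in the knockout in all, among them Rnu1a1, which matches 99.4% of the bases and had 3 counts in the 6 libraries. How reads common to several copies were treated is unknown here, so transcription of Gm22513 and of its copies cannot be told apart.

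The U4 pair gave nearly the same counts. Gm24407 had 28, 8 and 20 counts in wild type and 46, 50 and 84 in the knockout, and Gm24265 had 24, 8 and 22 against 43, 42 and 82. Their log2 fold changes were 1.67 ± 0.40 and 1.61 ± 0.41. Wild-type replicate 2 was low for both genes and knockout replicate 3 high for both. Leaving out wild-type replicate 2 gave 1.29 for Gm24407, and leaving out knockout replicate 3 gave 1.23 for Gm24265. The more distant U4 copies at 85% identity or above, 3 genes for each of the pair, held no counts.

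One small nuclear RNA gene with more reads was level. Gm25047, the most abundant of that class outside the members, had 181, 169 and 171 counts in wild type and 182, 183 and 151 in the knockout (log2 fold change -0.02 ± 0.13). All small nuclear RNA genes other than the 3 members summed to 15.4 ± 1.10 CPM in wild type and 16.6 ± 1.35 CPM in the knockout (SD, n = 3), and the libraries of the genotypes overlapped.

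Gm23935 (chromosome 16, 11144125 to 11144181, plus strand) lies within the protein-coding gene Zc3h7a on the opposite strand. GENCODE lists it as a miRNA gene, and its sequence, 73.7% G and C, is shown because copies of it make its counts uncertain.
Gm23935: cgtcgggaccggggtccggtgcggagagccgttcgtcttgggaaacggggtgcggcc
The gene rows Gm24270 and Gm24245 have the same 57 bases and together held 61 counts in wild type and 71 in the knockout, against 10257 and 12937 for Gm23935. Gm25911, at 96.5% identity, had 284, 296 and 309 counts in wild type and 466, 315 and 434 in the knockout.

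The Gm23935 levels were 153.4, 145.43 and 168.63 CPM in wild type against 204.86, 170.47 and 212.43 CPM in the knockout. This is a ratio of means of 1.26 and the smallest change among the 8 tested members, at a log2 fold change of 0.33 ± 0.09 (0.33 ± 0.05 with the block). Its genotypes were only just separated: scaled to library totals alone, the lowest knockout library (169.0 CPM) fell below the highest wild-type library (169.7 CPM). The host gene Zc3h7a had -0.07 ± 0.14. Per kilobase of gene, Gm23935 stood at 2734 CPM in wild type, against 3891 CPM for Gm42418 and 42.2 CPM for Rn7sk. The genes have 57, 1831 and 331 bases, so levels per kilobase are not directly comparable between them.

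Gm42418 (chromosome 17, 39846958 to 39848788, plus strand) was the gauge of ribosomal RNA. RefSeq gives its name as a synonym of Rn18s-rs5, listed as a pseudogene, which overlaps it and whose symbol refers to 18S ribosomal RNA. The wild-type libraries had 6456.5, 7042.77 and 7873.97 CPM, and the knockout libraries had 11052.6, 6881.15 and 10593.6 CPM. Replicates 1 and 3 of the knockout were high, and replicate 2 lay inside the wild-type range, so the genotypes overlapped (log2 fold change 0.42 ± 0.17). Without knockout replicate 2 the log2 fold change was 0.61. The sources used here do not say whether poly(A) selection or removal of ribosomal RNA was applied. Protein-coding genes summed to 952777 CPM in wild type and 960708 CPM in the knockout (means). The share of each small RNA that the libraries captured was not tested, so the CPM of a member need not follow its level in the cells.

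Other ribosomal RNA rows were mostly higher in the knockout too. Of the mitochondrial rRNA genes, mt-Rnr1 and mt-Rnr2 had 0.40 ± 0.09 and 0.37 ± 0.09, and n-R5-8s1, a 5.8S ribosomal RNA gene, had 0.94 ± 0.22. Its counts were 1775, 1322 and 1306 in wild type against 2252, 2491 and 3723 without Ankrd31. Gm26917, next to Gm42418, had 0.03 ± 0.09. None of these was called in edgeR with or without the block.

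The members ordered the pairs differently. In Rmrp, Rpph1, Gm22513, Gm24407 and Gm24265 the log2 ratio was smallest in pair 1, at 0.446, 0.145, 1.31, 0.714 and 0.836. In Gm23935 and Gm42418 it was largest in pair 1, at 0.417 and 0.776, and smallest in pair 2, at 0.229 and -0.033. Rn7sk had 0.857, 0.552 and 0.881 in pairs 1, 2 and 3, smallest in pair 2 as the gauge was and largest in pair 3.

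In pair 2 the gauge was thus level, and the log2 ratio was 0.944 for Rmrp, 1.11 for Rpph1, 2.73 for Gm22513 and 0.552 for Rn7sk. Other ribosomal RNA rows were not all level in pair 2. They had 0.972 for n-R5-8s1, 0.264 for the rRNA gene CT010467.1, 0.190 for mt-Rnr1, 0.138 for mt-Rnr2 and -0.201 for Gm26917. The part of carried-over ribosomal RNA in the ratios of the members was not tested. The mitochondrial ribosomal RNAs, Lars2 and Gm25911 ordered their pairs as Gm42418 did, with pair 1 first and pair 2 last. Lars2, the mitochondrial leucyl-tRNA synthetase gene, was listed here among the genes that overlap ribosomal RNA, so it is not a separate kind of signal. The 5.8S gene n-R5-8s1 ordered them as Rmrp and Rpph1 did, with 0.351, 0.972 and 1.44. Gm26917, next to Gm42418, and Mir6236, a miRNA gene by annotation only, ordered them as Rn7sk did, with pair 3 first and pair 2 last. Their ratios in pairs 1, 2 and 3 were 0.006, -0.201 and 0.283 for Gm26917 and 0.341, 0.129 and 0.354 for Mir6236. With 3 pairs these orders are a description.

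**Figure D2:**
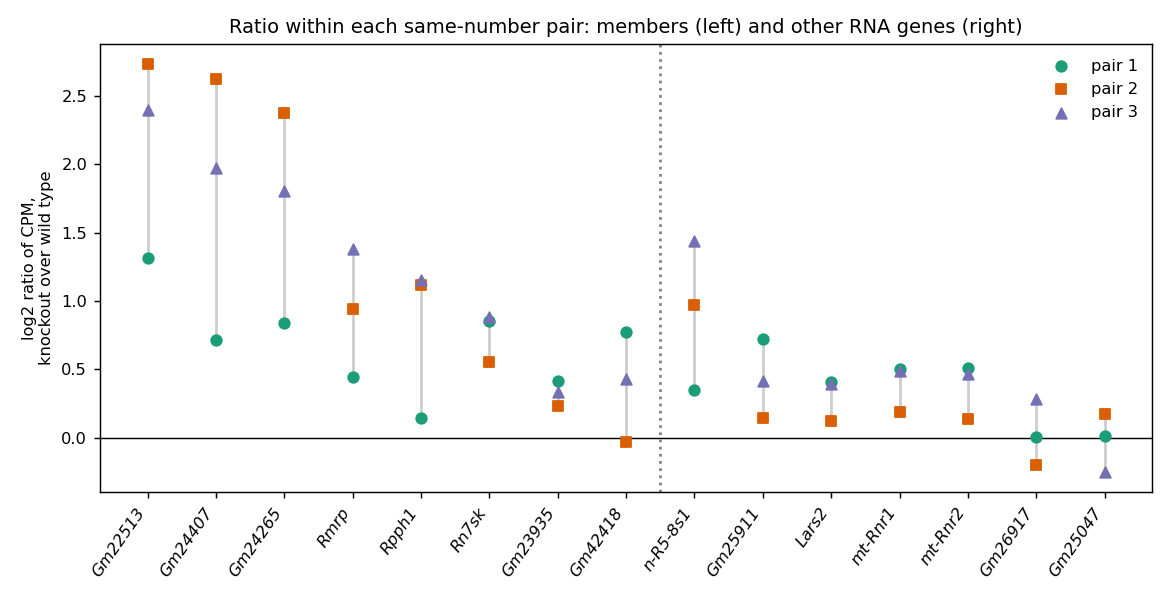
Log2 ratio of knockout to wild-type CPM within pairs 1, 2 and 3 (vertical axis; circles, squares and triangles). The 8 tested members are left of the dotted line, and n-R5-8s1, Gm25911, Lars2, mt-Rnr1, mt-Rnr2, Gm26917 and Gm25047 are right of it. Pair 1 is lowest for Gm22513, Gm24407, Gm24265, Rmrp, Rpph1 and n-R5-8s1. Pair 2 is lowest for Rn7sk, Gm23935, Gm42418, Gm25911, Lars2, mt-Rnr1, mt-Rnr2 and Gm26917, and pair 3 for Gm25047.

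Single libraries recur at the ends of the ranges. Wild-type replicate 1 was the highest wild-type library in 6 of the 8 tested members and knockout replicate 2 the lowest knockout library in 6 of 8. With the level of Gm42418 as a covariate beside genotype, the log2 fold change was 2.48 ± 0.42 for Gm22513, 0.83 ± 0.27 for Rmrp and 0.82 ± 0.35 for Rpph1. Without it these were 2.23, 0.93 and 0.74. It was 1.54 ± 0.55 for Gm24407 and 1.32 ± 0.54 for Gm24265, against 1.67 and 1.61 without the covariate. It was 0.49 ± 0.15 for Rn7sk and 0.15 ± 0.09 for Gm23935, against 0.78 and 0.33. With the mean level of the mitochondrial ribosomal RNAs as the covariate it was 0.66 ± 0.32 for Rn7sk, 0.14 ± 0.18 for Gm23935 and 1.38 ± 0.48 for Rpph1. It was then 2.34 ± 0.72 for Gm22513, 0.85 ± 0.43 for Rmrp, 1.69 ± 0.90 for Gm24407 and 1.23 ± 0.91 for Gm24265. The gauge was high in 2 of the 3 knockout libraries, so the part of genotype and that of the covariate are not cleanly separated in these fits.

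**Figure D3:**
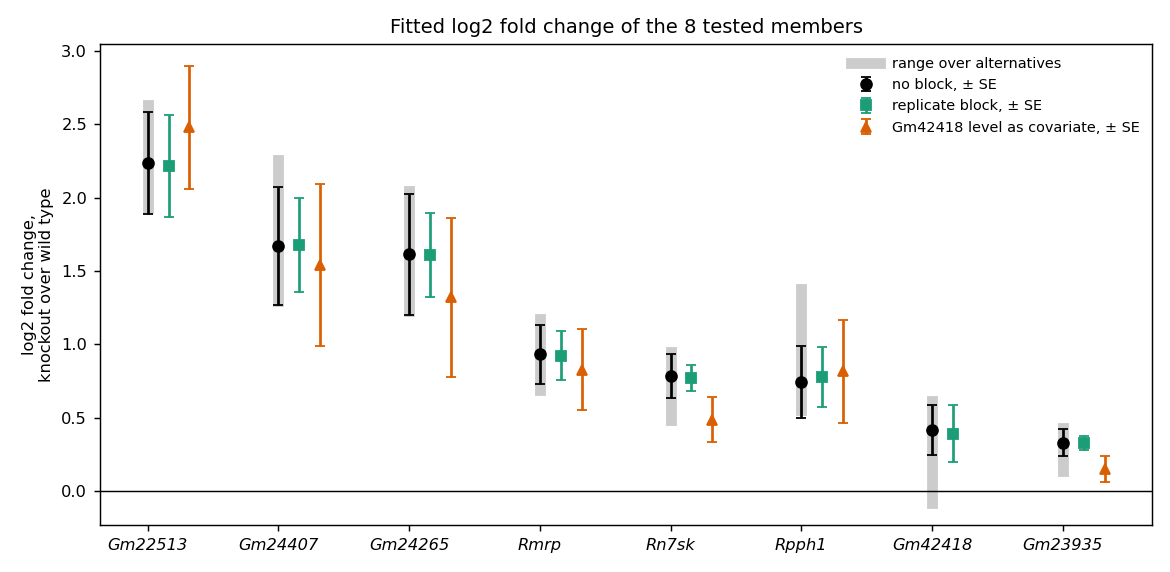
Log2 fold change, knockout over wild type (vertical axis), of the 8 tested members without the block, with the replicate block and with the Gm42418 level as a covariate, each ± SE, and the range over all alternatives in grey. With the covariate the value is lower for Rn7sk (0.49), Gm23935 (0.15), Gm24265 (1.32), Gm24407 (1.54) and Rmrp (0.83). It is higher for Gm22513 (2.48) and Rpph1 (0.82).

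Rn7sk was picked on the genotype contrast, with a log2 fold change of 0.78. Genes for 7SK-binding proteins and P-TEFb had values between 0.0003 and 0.13. Closeness to Rn7sk here depends on the size of the differences between libraries, so such genes could hardly be among the nearest. Nothing is read from their absence below. The genes whose levels over the 6 libraries ran closest to Rn7sk are given as a description. By root mean square distance of centred log2 CPM they were Gm43328 (0.184), Gm595 (0.188), Gm25911 (0.191), Supt20-ps (0.194) and Gm10643 (0.196), and the nearest members were Rmrp at 0.223 and the gauge Gm42418 at 0.227. Nearest to Gm42418 were Gm25911 (0.068), Gm15564 (0.110), Slco1a4 (0.117), Frrs1l (0.120) and Lars2 (0.123), and Gm23935 stood at 0.143. Gm22513 was far from both, at 0.718 from Rn7sk and 0.911 from Gm42418.

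Genes for the proteins that make and trim these RNAs had medians near 0. Of 13 RNA polymerase III subunit genes, edgeR called 0, with a median log2 fold change of -0.002; Polr3e, the most abundant, had -0.06 ± 0.06. Of 19 promoter factor genes for such transcripts, among them the SNAPc subunits, Brf2 and the polymerase repressor gene Maf1 (0.004 ± 0.06), it called 0, with a median of 0.008. Of 21 tested genes for 3′ end processing and the exosome it called 0, with a median of 0.03. Ssb, whose La protein binds the ends of new RNA polymerase III transcripts, had 0.07 ± 0.06.

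Other RNAs without a poly(A) tail gave mixed values. Of 15 tested small nucleolar RNA genes, edgeR called 0, 8 were higher and 7 lower, and the median was 0.05. The most abundant, Snord104, had -0.38 ± 0.24. Small nucleolar RNAs summed to 25.2 ± 3.55 CPM in wild type and 25.3 ± 1.61 CPM in the knockout. Of 14 tested genes named as clustered histones, whose mRNAs mostly end without poly(A), edgeR called 0. Their log2 fold changes lay between -0.35 and 1.26, with a median of 0.02. The counts do not show which of these mRNAs end without poly(A). The Y RNA gene Rny3 had 13, 8 and 6 counts in wild type and 11, 27 and 19 in the knockout (1.07 ± 0.42), with overlapping libraries. Rny1, another Y RNA gene, was below the filter with 6, 2 and 2 counts in wild type and 10, 7 and 17 in the knockout, and its libraries did not overlap in CPM.

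**Figure D4:**
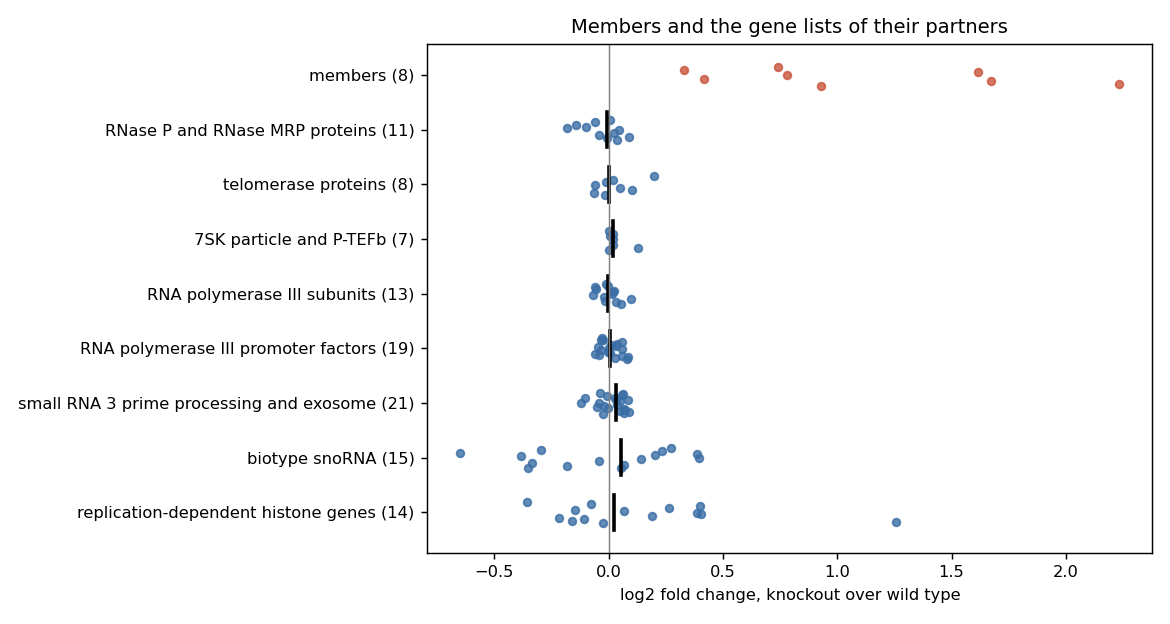
Log2 fold change, knockout over wild type (horizontal axis), of each tested gene in the members and in 8 gene lists, with the number of tested genes in brackets and the list median as a black bar (none for the members, which were chosen on this contrast). The protein partners cluster around 0, with medians between -0.01 and 0.03.

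Upstream sequences are shown for the 3 RNA polymerase III genes because each has an oppositely directed gene nearby. They were read from the RefSeq (GRCm38.p6) promoter windows of C920006O11Rik, Ccdc107 and Parp2 and turned to the strand of the small RNA gene. The octamer ATGCAAAT, or its reverse complement ATTTGCAT, is in capitals. It was found 216 to 223 bases before the start of Rmrp and 93 to 100 bases before that of Rpph1. The Rn7sk stretch has no exact match. Of 32851 windows of 300 bases in the same table, 1.74% hold the octamer on either strand.
Rn7sk, chr9:78175664-78175913, minus strand: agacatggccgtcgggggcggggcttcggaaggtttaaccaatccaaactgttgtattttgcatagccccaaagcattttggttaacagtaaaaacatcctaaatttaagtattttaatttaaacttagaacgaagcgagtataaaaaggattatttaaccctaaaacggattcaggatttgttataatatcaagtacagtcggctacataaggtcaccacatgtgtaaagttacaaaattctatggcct
Rmrp, chr4:43493115-43493339, minus strand: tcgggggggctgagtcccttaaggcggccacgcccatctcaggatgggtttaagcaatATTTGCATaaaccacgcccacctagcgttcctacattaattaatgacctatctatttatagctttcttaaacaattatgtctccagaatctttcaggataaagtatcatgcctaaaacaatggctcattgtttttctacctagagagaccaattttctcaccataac
Rpph1, chr14:50807768-50807896, minus strand: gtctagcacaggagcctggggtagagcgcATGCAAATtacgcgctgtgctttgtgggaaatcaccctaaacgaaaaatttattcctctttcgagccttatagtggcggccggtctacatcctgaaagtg

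The oppositely directed genes had values near 0. RefSeq starts Ccdc107 upstream of Rmrp, while the deposited table starts it inside Rmrp, so the stretch shown lies within the counted span of Ccdc107. C920006O11Rik, opposite Rn7sk, had a log2 fold change of 0.02 ± 0.17, Ccdc107, opposite Rmrp, -0.09 ± 0.11, and Parp2, opposite Rpph1, 0.06 ± 0.07. Eapp, which ends at base 54695897 of chromosome 12, before the start of the U1 gene Gm22513, had 0.06 ± 0.06. Sirt4, which ends at base 115484725 of chromosome 5, before the U4 pair, had -0.18 ± 0.16.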

How the data were processed

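RNA-seq counts of whole testis, deposited without normalization, came as 1 gene table covering all 6 libraries. The submitters' processing notes name featureCounts 1.6.0, GSNAP, bcl2fastq 2.19.1 and the mm10 build. A strand-specific kit was used per the labels' protocols. The sources do not state the strand setting of the counting or the treatment of reads with several matches. On the opposite strand, CT010467.1 shares all 1831 bases of Gm42418 and AY036118 shares 923. They held 565 and 0 counts, against 469066 in wild type and 628151 in the knockout for Gm42418, so counts at that locus followed the strand. The deposited rows numbered 49763, and 92 spike-in rows with 1 count were left out. Of 49671 gene rows, 49412 matched GENCODE M21, which gave names and classes; all 9 members had the same coordinates in both, and the second Rmrp record of GENCODE is not a row. The deposited length column gives the summed exon length in bases and served as another measure, for levels per kilobase.

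The test was edgeR's robust, two-sided quasi-likelihood test (version 4.0.16, R 4.3.3) after its default expression filter and TMM scaling, with Benjamini-Hochberg adjustment over 18040 genes and a threshold of 0.05. DESeq2 1.42.0, limma 3.58.1 voom, other scalings and filters, each library or pair left out, and covariates were alternatives; the scripts were tested on simulated counts. Pair ratios add 0.5 counts and pattern distances add 2. The design text names 3 mice per genotype. Same-number libraries deviated together (correlations 0.42, 0.26 and 0.28, each over 0.1), and the numbers were taken to pair them on this hint. Copies were found with blastn.

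The members and lists were chosen with earlier results of these data known. Named genes are the members, the nearest genes in pattern, and up to 3 of the most abundant genes of each list, of which a selection is given; neighbours, partners of 7SK and close copies were named after their values were seen.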

Additional observations from a re-analysis of the deposited data

How the results depend on the processing

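The 8 tested members kept their direction under every alternative run, 23 for each (22 for Gm42418), except Gm42418 with the mitochondrial ribosomal RNA level as a covariate (-0.082). Their log2 fold changes ranged from 0.49 to 0.95 for Rn7sk, 0.69 to 1.18 for Rmrp, 0.55 to 1.38 for Rpph1, 1.93 to 2.63 for Gm22513, 1.29 to 2.25 for Gm24407, 1.23 to 2.04 for Gm24265 and 0.14 to 0.43 for Gm23935. The number of genes called among all tested was 0 in edgeR without the block and 0 in each of the 6 fits without 1 library. It was 2 with DESeq2 (Rn7sk and 1 gene that is no member), 1 without the low count filter (Gm22513), 8 with the replicate block (Rn7sk, Gm23935 and 6 others), 1 with the block in limma voom (lower in the knockout and no member, so both calls are lost there) and 14 with the block in DESeq2. With the block and without a whole pair it was 63 of 18104 tested genes without pair 1, 57 of 18157 without pair 2 and 0 of 18171 without pair 3. The calls of Rn7sk and Gm23935 are thus lost without pair 3 (log2 fold changes 0.71 and 0.32), and that of Gm23935 also without pair 1 (0.28). Without pair 1 the calls held 6 members: Rn7sk, Rmrp, Rpph1, Gm22513, Gm24407 and Gm24265. Without pair 2 they held 6: Rn7sk, Gm22513, Gm24407, Gm24265, Gm23935 and the gauge Gm42418. In edgeR with the filter and all 6 libraries, the block changed no other call among the members. With the block and without the filter, an alternative chosen after seeing the data, 332 of 30982 genes were called (178 higher and 154 lower in the knockout), 7 of them members. The members were chosen on this contrast, so nothing is read from the numbers of members called in these fits. The members separated between genotypes numbered 7 under 3 other scalings and 6 with library totals alone, where Gm23935 overlapped. Depth limits Terc, Gm22513, Gm24407 and Gm24265, which had 6 to 84 counts per library.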

Other observations

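One structured RNA row stood in a single library. Gm22601, a 250-base gene of the class misc_RNA (chromosome 19, 41744804 to 41745053, plus strand), had 446 counts in knockout replicate 2 and 0 in the other 5 libraries. It did not pass the filter on low counts and entered only the fits without that filter. Among the 3287 genes counted in only 1 library it had the most counts, followed by Mir574 with 94, also in knockout replicate 2.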
